A study of Mus musculus with 37 samples.

Results

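The cytosolic ribosomal protein genes were taken as every gene symbol that begins with Rpl or Rps followed by a number (optionally followed by a, x, y or l and further digits, as in Rpl22l1), together with Rplp0, Rplp1, Rplp2 and Rpsa, and without symbols marked as pseudogenes by "-ps". Of the 25239 rows of the count table, 85 symbols fitted this pattern, and the 82 with a summed count of 1000 or more over all libraries are described here. By the prefix of the symbol, 33 were counted with the small (40S) subunit and 49 with the large (60S) subunit, stalk included. Rps4l and Rpl32l, annotated as processed pseudogenes, are among them. Just inside the minimum lay Rpl3l with 1036 counts and Rpl32l with 2593, and just outside it lay Rpl39l with 224, Rpl26 with 2 and Rpl10l with 2. Rpl26 encodes an ordinary 60S subunit, and its count is uncertain for the reason given below for Rps27, Rpl30 and Rpl34. All 82 passed the filter on low counts, which left 15046 genes for testing.

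Gene expression was measured by bulk RNA sequencing of hearts from mouse embryos at E10.5. Fathers carried Stra8-iCre and 1 Nipbl Flox allele, so that their sperm held either Nipbl Flox, which the submitters treat as a working allele, or Nipbl FIN, a null allele. Mothers were Isl1 Cre/+, with a Cre recombinase gene in 1 Isl1 allele and reduced Isl1 dose. The progeny fall into 4 genotypes: Nipbl +/+; Isl1 +/+ (wild-type, n = 10), Isl1 +/- (Isl1_het, n = 9), Nipbl +/- (Nipbl_het, n = 9) and Nipbl +/-; Isl1 +/- (double_het, n = 9). Nipbl encodes the factor that loads cohesin onto chromosomes, and Isl1 a transcription factor of cardiac progenitors. Embryos that received the maternal Cre allele also carry Cre in Isl1-expressing cells, and the labels do not say which embryos inherited Stra8-iCre. Each library has a set number, read from its description label, whose meaning the labels do not spell out. Set 1 held 3 wild-type and 3 Isl1_het libraries, sets 2, 5 and 6 held every genotype, and set 7 held 1 double_het library, replicate 2, which therefore informs no fitted genotype difference. The labels do not tell litters apart, and each embryo's heart was a single library.

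Cytosolic ribosomal proteins are the protein part of the machine that translates messenger RNA: the 40S subunit decodes the message and the 60S subunit joins the amino acids. A ribosome needs nearly every such protein, and their messages share a start in a run of pyrimidines, the terminal oligopyrimidine (TOP) motif, through which growth signals acting by mTOR and LARP1 set their translation. Growing embryonic tissue, the heart included, devotes a large share of its messenger RNA to them, and shortage of a single ribosomal protein can activate p53.

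Totals per library lay between 23.4 and 51.0 M counts (M, mega-counts). Nipbl, the targeted gene, averaged 60.02 CPM with an SD of 10.1 over the wild-type libraries and 39.3 CPM with an SD of 13.8 over those of Nipbl_het. With 72.4 CPM, Nipbl_het replicate 2 went against its label, and without this library the Nipbl_het mean was 35.2 CPM (SD 6.34, n = 8). The comparisons below are given for all libraries, with the values without this one where it bears on them. Isl1 averaged 7.37 CPM (SD 2.24) in wild-type and 6.28 CPM (SD 1.76) in Isl1_het, but 13.0 CPM (SD 2.82) in Nipbl_het and 9.50 CPM (SD 3.51) in double_het. The Isl1 level of double_het, labelled Isl1 +/-, thus lay above that of wild-type, so the total level does not check the Isl1 labels, and the part of Isl1 that the Cre allele replaces was not examined. Cardiomyocyte markers summed to between 35046 and 56019 CPM in every library, so the labelled tissue carried its defining genes.

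The 82 genes took a large and variable part of each library. Over the wild-type libraries their summed share of all counts ran from 5.60% through a median of 7.26% to 9.82%. In Isl1_het the share ran from 5.61% through a median of 6.80% to 8.48%. In Nipbl_het it ran from 5.07% through 6.22% to 9.53%, and in double_het from 4.96% through 5.70% to 10.8%. All 4 ranges held the stretch from 5.61% to 8.48%, the whole range of Isl1_het. Means were 7.49% ± 1.48 in wild-type (SD, n = 10), 6.88% ± 1.01 in Isl1_het (SD, n = 9), 6.66% ± 1.60 in Nipbl_het (SD, n = 9; 6.81% ± 1.63 without replicate 2, n = 8) and 6.42% ± 1.77 in double_het (SD, n = 9), differences smaller than the SD within any of the wild-type, Nipbl_het and double_het groups. In bulk tissue, fewer cells of a type and less RNA per cell cannot be told apart. The balance between the subunits varied far less than the share: the summed counts of Rps genes over those of Rpl genes gave a ratio between 0.772 and 0.817 in the 37 libraries, with a mean of 0.794 ± 0.00953 (SD, n = 37).

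**Figure D1:**
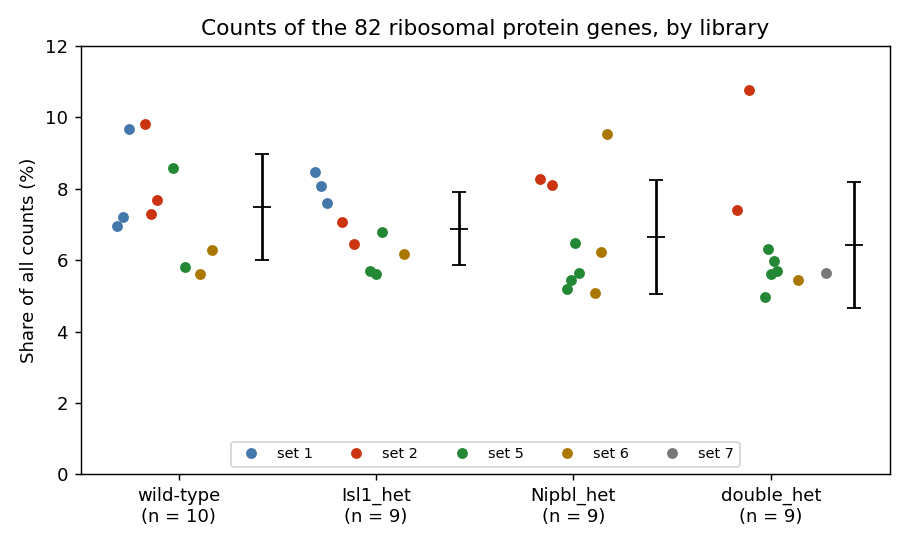
Share of all counts (%, vertical axis from 0) taken by the 82 ribosomal protein genes, 1 point per library, by genotype and coloured by set number; the bar at the right of each genotype is the mean with its SD. The genotypes overlap, while libraries of set 2 have a higher mean (8.10%) than those of set 5 (5.99%), with overlap between 6.46% and 8.58%.

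Levels differed widely between members when expressed per length, as CPM per kilobase of annotated transcript. The highest was Rpl13a at 4405 CPM per kb, a 60S protein that is also known as a regulator of translation in inflammation. Next came Rpl41, the smallest ribosomal protein, at 2890, the stalk protein Rplp1 at 2768, the 40S protein Rps14 at 2768 and the 40S protein Rps18 at 2341 CPM per kb. At the low end lay Rpl3l at 0.778 CPM per kb, a muscle-restricted paralogue of Rpl3. Rpl32l, annotated as a processed pseudogene, lay at 5.11, and Rpl30, Rps27 and Rpl34 at 5.27, 6.93 and 20.5 CPM per kb. These last 3 encode ordinary subunits of every ribosome, yet their levels were far below those of other subunits. The counting rule for reads that fit several places is not given in the sources used here, so their levels are uncertain. Rps27rt and Rpl34-ps1, rows for copies of Rps27 and Rpl34, had 0 counts. Whether reads that fit several places have a part in the low levels was not tested. Lengths are the lower median over a gene's coding transcripts, which for Rps15a (5130 bases) and Rps20 (3706 bases) is far longer than for other members, so their levels per length are uncertain as well.

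Other rows of the table hold copies of members. Rpl14-ps1, a processed pseudogene, had 364663 counts, 37.3% of the 977657 of Rpl14. Rpl37rt, a transcribed processed pseudogene, had 49385 counts, 8.74% of those of Rpl37, and Rps6-ps4 had 51701, 4.70% of those of Rps6. Reads of a gene and of its near-identical copy cannot be told apart with certainty, so the values of Rpl14, Rpl37 and Rps6 may be split between rows. The fusion gene Fau, outside the naming pattern, encodes a 40S protein joined to a ubiquitin-like protein, and it had 623928 counts.

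Genotype comparisons were made by edgeR's quasi-likelihood test with set number as a factor, over all 15046 genes at an adjusted p (Benjamini-Hochberg) of 0.05. No member was called in any of the 8 comparisons, and DESeq2 called none either. Over all genes DESeq2 called 11, 459, 521, 234, 0, 0, 813 and 115, in the order in which the edgeR shares follow. Among all genes tested, edgeR called 0% in Isl1_het against wild-type, 1.71% in Nipbl_het against wild-type and 2.60% in double_het against wild-type. The share was 0.957% in double_het against Isl1_het, 0% in double_het against Nipbl_het and 0% for the interaction. It was 4.02% for Nipbl loss averaged over Isl1 genotype and 0.173% for Isl1 loss averaged over Nipbl genotype. Without Nipbl_het replicate 2 these shares were 0.0133%, 2.72%, 5.57%, 2.40%, 0%, 0%, 6.93% and 0.372% in the same order, with 1 member called, Rps4l, in double_het against wild-type and for averaged Nipbl loss. At an unadjusted p under 0.05, edgeR gave 1 of 82 members in each of 5 comparisons and 0 in the other 3. Over all genes the share at that level was 5.89% in Isl1_het, 15.1% in Nipbl_het and 11.6% in double_het against wild-type. It was 7.49% and 9.01% in double_het against Isl1_het and Nipbl_het, 2.73% for the interaction, 14.9% for averaged Nipbl loss and 12.2% for averaged Isl1 loss. The members' share lay below that of all genes in each of the 8 comparisons. The members were Rpl3l in Isl1_het, Rps4l in Nipbl_het, in double_het and for averaged Nipbl loss, and Rps27 for averaged Isl1 loss. The last rested on Nipbl_het replicate 2: the Rps27 change was -0.29 (SE 0.13) with that library and -0.19 (SE 0.12) without it.

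The fitted changes were small and lay mostly on 1 side. In Isl1_het against wild-type, 79 of 82 members were below 0, with a median log2 change of -0.17, against a median of -0.0034 over all genes tested. In Nipbl_het against wild-type 70 were below 0, with a median of -0.08. In double_het against wild-type 74 were below 0, with a median of -0.12. These 3 comparisons share the wild-type libraries, and the standard error of a single member had a median of 0.15, 0.15 and 0.16 in them. In double_het against Isl1_het 68 members were above 0 with a median of 0.05, and in double_het against Nipbl_het 63 were below 0 with a median of -0.04. The interaction was above 0 in 79 members with a median of 0.11 and a median standard error of 0.21. That median was -0.00058 without double_het replicate 8 and 0.22 without Nipbl_het replicate 8. Without Nipbl_het replicate 2, 72 members were below 0 in Nipbl_het against wild-type, with a median of -0.07, and the member that moved most was Rps27, by 0.18 log2. The 40S and 60S genes had the same median change to within 0.03 in Isl1_het (-0.15 and -0.17), in Nipbl_het (-0.08 and -0.09) and in double_het (-0.12 and -0.12). The members varied together from library to library, so the count on 1 side is not a count of independent genes.

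Within sets the direction differed in sign. The member median in Nipbl_het minus wild-type was -0.07, -0.41 and 0.21 log2 in sets 2, 5 and 6. In double_het minus wild-type it was 0.14, -0.41 and -0.15 in the same sets. In Isl1_het minus wild-type it was 0.00, -0.38, -0.31 and 0.11 in sets 1, 2, 5 and 6. In double_het minus Isl1_het it was 0.52, -0.09 and -0.23 in sets 2, 5 and 6, and in double_het minus Nipbl_het it was 0.22, -0.01 and -0.36. Each of these rests on 1 to 5 libraries a group. Leaving out wild-type replicate 4 alone moved the median to -0.05 in Isl1_het and turned it to 0.06 in Nipbl_het and 0.02 in double_het, and leaving out double_het replicate 8 moved that of double_het to -0.27. Without double_het replicate 8 the median was -0.10 in double_het against Isl1_het and -0.18 in double_het against Nipbl_het, and without Nipbl_het replicate 8 the latter was 0.06. Without the libraries of set 5 the medians were 0.13 in Nipbl_het and 0.11 in double_het, and without the set term they were -0.26 and -0.30. The direction in both groups thus changed when set 5 was left out, and their size when the set term was.

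**Figure D2:**
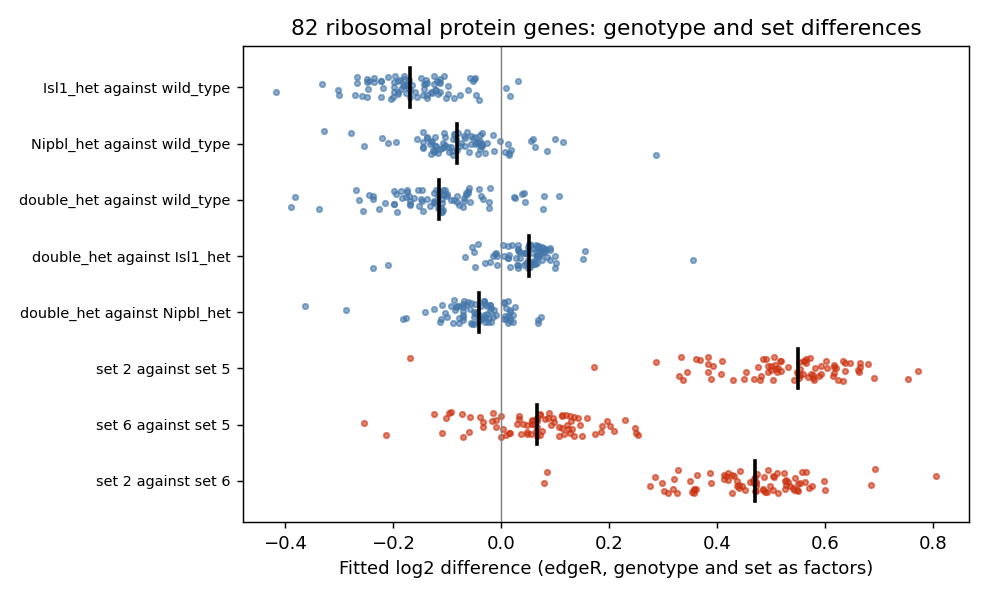
Fitted log2 differences (horizontal axis) of the 82 ribosomal protein genes, 1 point per gene, for 5 genotype comparisons (blue) and 3 comparisons of sets (red); black bars are medians. The genotype medians lie between -0.17 and 0.05, while set 2 lies above set 5 with a median of 0.55.

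Among named genes, Rpl11, a 60S protein that also binds Mdm2, ran from 797 through a median of 1146 to 1754 CPM in wild-type and from 770 through 1022 to 1372 CPM in Isl1_het. It ran from 678 through 929.5 to 1614 CPM in Nipbl_het and from 685 through 817 to 2021 CPM in double_het. The 4 ranges overlapped, and the log2 changes against wild-type of -0.19 (SE 0.15) in Isl1_het, -0.06 (SE 0.16) in Nipbl_het and -0.11 (SE 0.16) in double_het did not pass (adjusted p 0.859, 0.879 and 0.863, edgeR). The stalk proteins recruit elongation factors to the ribosome. Rplp0, which anchors the stalk, averaged 2616 ± 647 CPM over the wild-type hearts (SD, n = 10), 2472 ± 411 in Isl1_het (SD, n = 9), 2165 ± 468 in Nipbl_het (SD, n = 9) and 2153 ± 579 in double_het (SD, n = 9), with a log2 change of -0.11 (SE 0.11) in both Nipbl_het and double_het. The changes of Rplp1 in these groups were -0.13 (SE 0.18) and -0.20 (SE 0.18), and those of Rplp2 -0.14 (SE 0.17) and -0.17 (SE 0.18). For Rpsa, a 40S protein that is also known as a laminin receptor, the log2 changes were -0.14 (SE 0.15) and -0.12 (SE 0.15), neither past the test.

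The member nearest to a call was Rps4l, on chromosome 6, which GENCODE M21 lists as a transcribed processed pseudogene and whose parent Rps4x lies on the X chromosome. Rps4l ran from 139 through a median of 188 to 241 CPM in wild-type, from 153 through 168 to 221 in Isl1_het, from 58.4 through 133 to 181 in Nipbl_het and from 105 through 129 to 210 in double_het. The groups with Nipbl loss lay lower at their medians, and all 4 ranges overlapped. The fitted log2 difference from wild-type was -0.33 (SE 0.13, adjusted p 0.211) in Nipbl_het, -0.34 (SE 0.14, adjusted p 0.262) in double_het and -0.28 (SE 0.10, adjusted p 0.116) for averaged Nipbl loss. The value of 58.4 CPM is that of Nipbl_het replicate 2. Without that library, in edgeR, the change in Nipbl_het was smaller, at -0.23 (SE 0.10, adjusted p 0.255), while that in double_het was -0.37 with an adjusted p of 0.0232, and that for averaged Nipbl loss was -0.24 with an adjusted p of 0.0461. Without the set term the change for averaged Nipbl loss was -0.43 with an adjusted p of 0.00744. The log2 change of its parent Rps4x was 0.01 (SE 0.11) in Nipbl_het and 0.02 (SE 0.12) in double_het. Rps4l reads can come from Rps4x where the copies agree in sequence, so its level is uncertain.

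Paralogue pairs gave no call in either partner. For Rpl22 and Rpl22l1, the pair in which the first is known to repress the second, the log2 changes in double_het were -0.12 (SE 0.15) and -0.26 (SE 0.18). In Nipbl_het they were -0.04 (SE 0.14) and -0.19 (SE 0.18). Rpl3 averaged 1768 CPM in wild-type hearts, while its muscle paralogue Rpl3l averaged 0.949 CPM, with log2 changes in Isl1_het of -0.16 (SE 0.10) and -0.42 (SE 0.20). For Rpl7 and Rpl7l1 the log2 changes in Nipbl_het were -0.06 (SE 0.12) and -0.13 (SE 0.08). Rps27 and its p53-responsive paralogue Rps27l stood at 2.66 and 195 CPM in wild-type, with the uncertainty named above for Rps27. Of the remaining pairs, Rpl39 and Rpl10 had partners under the count minimum, and their log2 changes in Nipbl_het were -0.28 (SE 0.23) and 0.01 (SE 0.10). None of these passed the test.

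Set number, in contrast, was associated with most members. The test over all set terms called 74 of 82 (90.2%), against 38.2% of all genes. The members not called were Rpl15, Rpl22, Rpl22l1, Rpl32l, Rpl39, Rpl7a, Rpl7l1 and Rps27. The share of counts was 8.00% ± 0.986 in set 1 (SD, n = 6), 8.10% ± 1.38 in set 2 (SD, n = 9), 5.99% ± 0.891 in set 5 (SD, n = 14) and 6.33% ± 1.48 in set 6 (SD, n = 7). The single library of set 7 was at 5.64%. In set 2 against set 5, 77 members were higher and 0 lower, with a median log2 difference of 0.55, while 16.7% of all genes were called higher. Among the smallest adjusted p-values were those of Rpl28, a 60S protein, at 0.59 (SE 0.11, adjusted p 2.90e-04, edgeR) and of Rplp0 at 0.49 (SE 0.09, adjusted p 4.05e-04). The largest fitted differences were those of Rpl41 at 0.77 (SE 0.19) and Rpl21 at 0.75 (SE 0.19). In set 2 against set 6, 49 members were higher, against 9.71% of all genes, and in set 6 against set 5 none was, against 0.399%. Left without set 2, the test over the remaining sets called 8 of 82 members, against 9.46% of all genes. Without set 5 it called 45, against 43.6%, and without double_het replicate 8, which lies in set 2, it also called 45, against 29.4%. What the sets differ in is not stated, and their part in genotype values was removed by the set term only.

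Beyond genotype and set, the members varied together between libraries. For each gene the log2 CPM values were cleared of genotype and set means, over the 36 libraries outside set 7, and these residuals were correlated. The median Pearson correlation over the 3321 member pairs was 0.922, and 73.8% of pairs lay above 0.8. Over all genes tested the median was -0.00055 with 1.65% of pairs above 0.8, and over the 5921 other genes with a mean log2 CPM of 5 or more it was 0.0042 with 4.52% above 0.8. Pairs within the 40S subunit had a median of 0.940, pairs within the 60S subunit 0.909 and pairs between them 0.926. The first principal component of the members held 85.4% of their residual variance, and the second 3.36%. These correlations are descriptions: the genes of a library share its RNA, depth and preparation.

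The libraries at the ends of this axis come from different genotypes. The mean residual of the members was highest in Nipbl_het replicate 8 at 0.73 log2, wild-type replicate 4 at 0.62 and double_het replicate 8 at 0.60, which lie in sets 6, 5 and 2. It was lowest in Nipbl_het replicate 6 at -0.36, Isl1_het replicate 5 at -0.31 and wild-type replicate 1 at -0.31. Its SD over 36 libraries was 0.27, larger than the member median of each of the 8 comparisons fitted over all libraries. With the 3 highest libraries left out, the median pairwise correlation was 0.868 and 77 members were called for set, against 43.3% of all genes. The members with a correlation above 0.9 with the mean of the other 81 numbered 66 with all libraries and 59 without those 3, and those under 0.8 numbered 10 and 15.

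**Figure D3:**
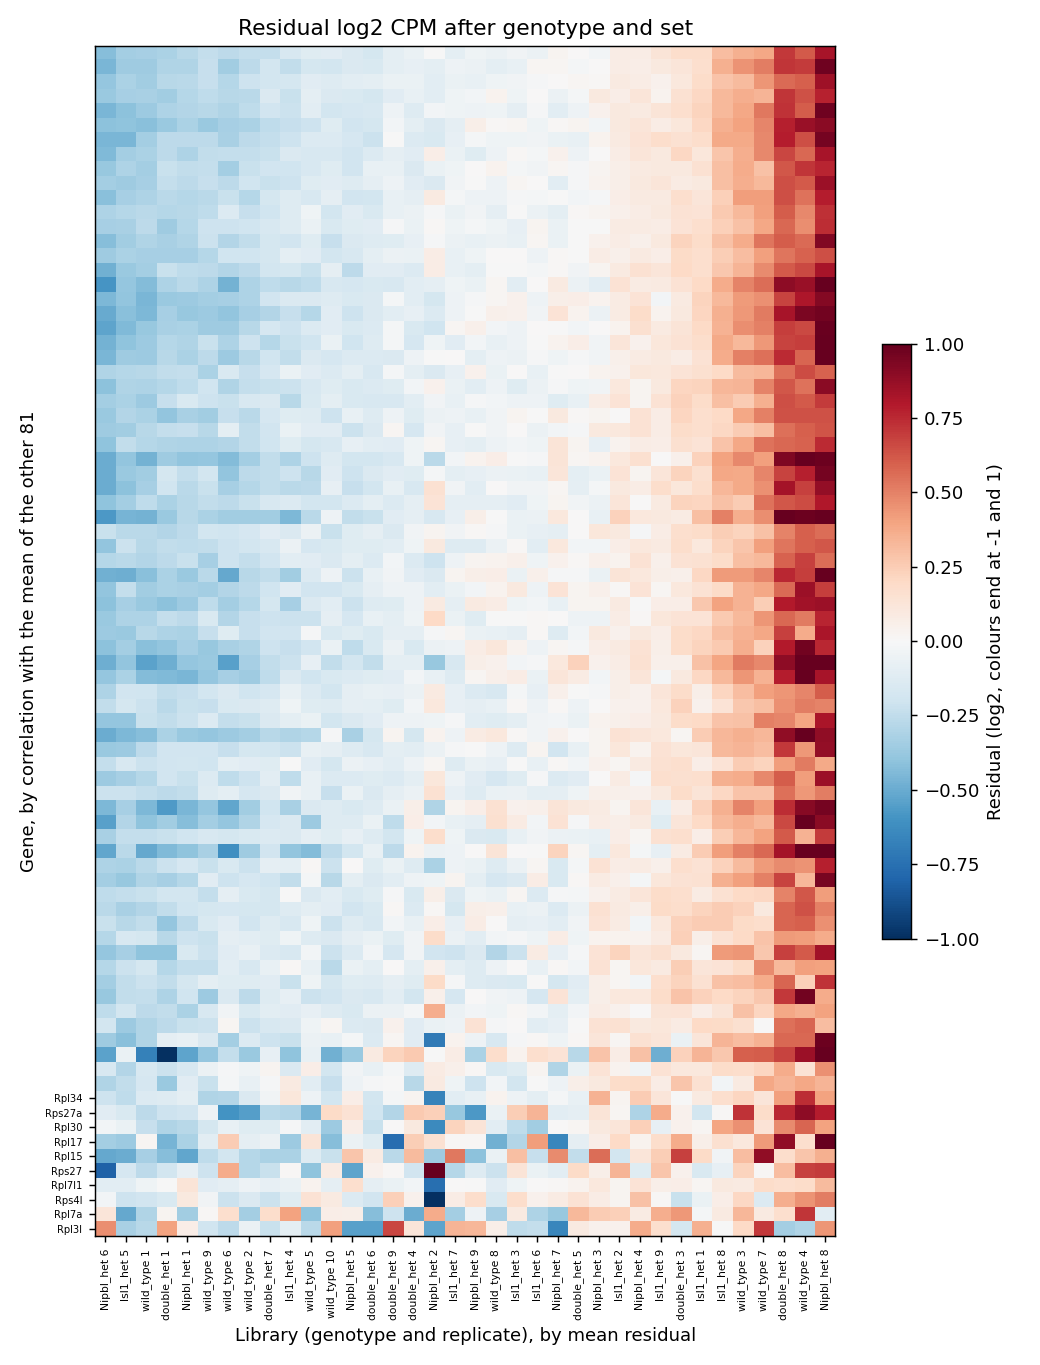
Residual log2 CPM after genotype and set (colour, ends at -1 and 1) of the 82 ribosomal protein genes (rows, ordered by correlation with the mean of the other 81, the last 10 labelled) in 36 libraries (columns, ordered by mean residual). Most rows share 1 gradient from Nipbl_het replicate 6 (mean -0.36) to Nipbl_het replicate 8 (mean 0.73), and the last 10 rows, from Rpl34 to Rpl3l, depart from it.

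Among the members closest to the mean of the others were Rpl11 at a correlation of 0.994, Rps23 at 0.992, Rpl37 at 0.992 and Rpl32 at 0.991. Rps23 is a 40S protein at the decoding centre, and Rpl37 and Rpl32 are 60S proteins. A correlation under 0.8 was found for 10 members. Rpl3l was at 0.140 and Rpl7a at 0.398, followed by Rps4l at 0.492, Rpl7l1 at 0.511 and Rps27 at 0.570. Rpl15 was at 0.604, Rpl17 at 0.676, Rpl30 at 0.729, Rps27a at 0.735 and Rpl34 at 0.761. Of these, Rpl3l, Rps27, Rpl30 and Rpl34 had a mean under 13 CPM, while Rpl7a, Rpl15, Rpl17 and Rps27a had means from 217 to 688 CPM. Without Nipbl_het replicate 2, Rpl7l1 reached 0.906, Rpl34 0.868 and Rpl30 0.807, so that 7 members stayed under 0.8. Rpl7a at 0.426, Rpl15 at 0.610 and Rpl17 at 0.686 moved little. With the 3 libraries of highest member mean left out instead, Rpl7l1 was at 0.302, Rpl34 at 0.575 and Rpl30 at 0.558. Rpl7a was then at 0.389, Rpl15 at 0.690 and Rpl17 at 0.418.

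The amount by which members moved differed as well. The residual SD was largest for Rpl32l (0.50), Rpl39 (0.47), Rpl41 (0.46), Rpl21 (0.45) and Rpl38 (0.43). Among the smallest were those of Rpl7l1 (0.18), Rpl4 (0.20), Rps6 (0.20) and Rpl10 (0.21). Without Nipbl_het replicate 2 that of Rpl7l1 was 0.10. Rpl41 ran from 722 to 3218 CPM over the 37 libraries, a 4.46-fold range, and Rpl4, a large 60S protein, from 1552 to 3262 CPM, a 2.10-fold range. Across the 82 members the residual SD fell with transcript length (Spearman rho -0.474, genes not being independent).

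Transcript length went with this correlation outside the members too. Over 5868 other genes with a mean log2 CPM of 5 or more and an annotated length, the correlation of a gene with the member mean went with transcript length at a Spearman rho of -0.691. Its median was 0.759 among the 742 genes under 1000 bases and 0.492 among the 1381 between 1000 and 2000 bases. It was -0.128 among 2337 genes from 2000 to 4000, -0.548 among 1221 from 4000 to 8000 and -0.700 among 187 of 8000 bases or more. Members had a median length of 737.5 bases, against 2589 for the other genes. The 198 other genes with a correlation above 0.9 had a median length of 885 bases, and the 79 below -0.9 one of 5931 bases.

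**Figure D4:**
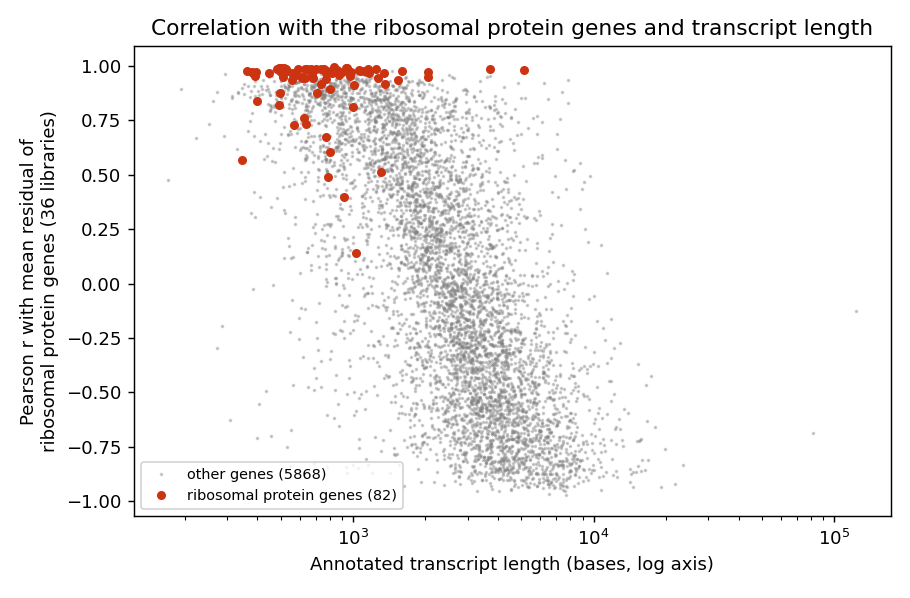
Pearson correlation of each gene's residual with the mean residual of the ribosomal protein genes (vertical axis, 36 libraries) against annotated transcript length in bases (log axis), for 5868 other genes (grey) and the 82 members (red, against the mean of the other 81). Short genes lie near the members and long genes at negative values, with a Spearman rho of -0.691 across the grey points.

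The same held across libraries. In each library the slope of log2 CPM on log2 length was taken over genes outside the list. Over 36 libraries, after genotype and set, the member mean correlated with that slope at r = -0.928 and rho = -0.937, and at r = -0.879 without the 2 libraries farthest from the median slope. Within sets 1, 2, 5 and 6 the correlation was -0.989, -0.986, -0.828 and -0.991. Nipbl_het replicate 2 stood apart, with the highest slope and a member mean of -0.05. The member mean also went with the number of genes detected (r = -0.779, rho = -0.633), the logarithm of the total count (r = -0.465, rho = -0.396) and that of the globin share (r = 0.420, rho = 0.504). Left without the 2 libraries farthest from the median of each measure, r was -0.627, -0.457 and 0.462. Within sets, r lay between -0.942 and -0.676 for genes detected, between -0.874 and 0.375 for the total count and between 0.210 and 0.559 for the globin share. These 4 relations are given as descriptions over 36 libraries, without tests. Whether RNA quality or library preparation has a part in them was not tested.

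**Figure D5:**
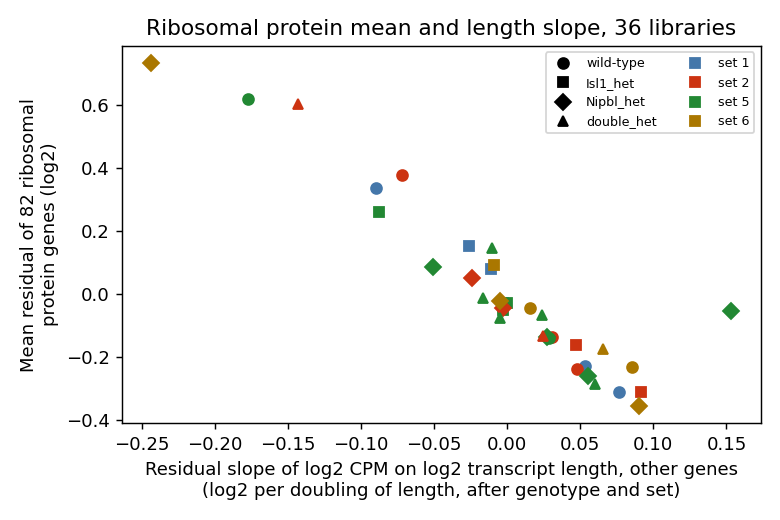
Mean residual of the 82 ribosomal protein genes (log2, vertical axis) against the residual slope of log2 CPM on log2 transcript length over other genes (horizontal axis), 1 point per library, 36 libraries, by genotype (shape) and set (colour). The points fall along a line (r = -0.928) from Nipbl_het replicate 8 at 0.73, and the point at the far right is Nipbl_het replicate 2 at -0.05.

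With each library's trend in length, estimated on genes outside the list, taken away, the coordination was smaller but present. The median pairwise correlation of members was then 0.755, with 42.5% of pairs above 0.8 against 1.13% of all pairs. It was 0.656 where the upper in place of the lower median of a gene's transcript lengths was used. The SD of the member mean over libraries went from 0.27 to 0.14 log2, and 40 members had a correlation above 0.9 with the others, against 66 before, with Rpl11 at 0.983 and Rpl12 at 0.978. Those under 0.8 numbered 22, against 10 before, with Rpl7l1 at -0.234, Rpl34 at 0.119 and Rpl30 at 0.112. After this step 46 of the 82 members were called for set, against 29.5% of all genes. For genotype the medians were -0.07 in Isl1_het, -0.06 in Nipbl_het and -0.08 in double_het against wild-type, and Rps4l was called, at -0.32 (adjusted p 0.0413, edgeR) in Nipbl_het and -0.30 (adjusted p 0.00524) for averaged Nipbl loss, where 2.47% and 5.11% of all genes were called.

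Outside the list, the genes most like the member mean were Eef1b2 at r = 0.988, Ndufa6 at 0.983, Pfdn5 at 0.982, Sec61g at 0.976 and Fau at 0.976, then Rack1, Aimp2, Eif3i, Mrpl23 and Chmp2a down to 0.972, over 36 libraries. Eef1b2 is a subunit of the elongation factor that delivers transfer RNA, Rack1 sits on the 40S subunit, and Ndufa6 belongs to respiratory complex I. Their annotated lengths ran from 382 bases (Ndufa6) to 1447 bases (Rack1). The genes with the most negative values were Myh10 at -0.971, Cgnl1 at -0.967, Nedd4 at -0.953, Lamc1 at -0.953 and Iqgap3 at -0.952, with lengths from 3263 to 7667 bases.

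The other parts of the translation machinery followed the members to different degrees. Other messages with a TOP start had a median correlation of 0.909 with the member mean (16 genes, median length 886.5 bases). The nuclear genes of the mitochondrial ribosome had 0.787 (78 genes), initiation factors 0.765 (27 of 28 tested) and elongation factors 0.560 (8 genes). Ribosome assembly factors and RNA polymerase I genes had 0.311 (30 genes, median length 2544 bases), and genes that control ribosome synthesis -0.121 (16 genes). Cardiomyocyte markers stood at 0.326 (12 genes) and ran from -0.686 for Ttn to 0.891 for Myl7. Erythroid markers stood at 0.354 (8 of 12 tested). Endothelial markers stood at -0.686 (7 genes, median length 4091 bases) and ran from -0.865 for Cdh5 to 0.553 for Emcn. The median was 0.249 for epicardial markers, -0.255 for cushion mesenchyme, -0.017 for liver and endoderm and 0.299 for neurons and neural crest.

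In genotype comparisons few genes of these lists were called. No elongation factor, initiation factor, TOP message or mitochondrial ribosomal protein gene was called in any of the 8 comparisons. Over all genes 1.71% were called in Nipbl_het, 2.60% in double_het and 4.02% for averaged Nipbl loss. In the assembly list 1 of 30 genes was called: Ncl, which encodes nucleolin, fell in Nipbl_het, with a log2 difference of -0.29 (SE 0.08) and an adjusted p of 0.0439 in edgeR. Without Nipbl_het replicate 2, Ncl was at -0.31 (SE 0.08, adjusted p 0.0208, edgeR) there and also called in double_het, at -0.27 (SE 0.08, adjusted p 0.0346). In the control list 1 of 16 was called: Mycn, which encodes a transcription factor of the Myc family that drives ribosome synthesis. Mycn averaged 74.6 ± 9.10 CPM over the wild-type hearts (SD, n = 10), 63.1 ± 6.36 in Isl1_het (SD, n = 9), 55.3 ± 7.09 in Nipbl_het (SD, n = 9) and 55.3 ± 9.93 in double_het (SD, n = 9). Mycn was lower by a log2 difference of -0.47 (SE 0.08, adjusted p 4.21e-04, edgeR) in Nipbl_het and -0.50 (SE 0.08, adjusted p 1.98e-04) in double_het, and by -0.35 (SE 0.06, adjusted p 1.95e-04) for averaged Nipbl loss. Without Nipbl_het replicate 2 the values in Nipbl_het and double_het were -0.43 (SE 0.07, adjusted p 2.57e-04) and -0.53 (SE 0.07). Larp1, which binds TOP messages, was at -0.24 (SE 0.09, adjusted p 0.169) in Nipbl_het. Among markers of other cell types, 4 of 6 epicardial genes were higher in double_het (Wt1, Tbx18, Upk3b and Upk1b), where the summed level ran from 491 to 644 CPM against 252 to 447 CPM in wild-type, and no cardiomyocyte marker was called. Of the same 6 genes Wt1 was also called higher in Nipbl_het against wild-type and in double_het against Isl1_het (where 0.957% of all genes were called), Wt1, Upk3b and Upk1b for averaged Nipbl loss, and Upk3b for averaged Isl1 loss (0.173%). For averaged Nipbl loss, Col1a1, a collagen gene in the cushion mesenchyme list, was lower by a log2 difference of -0.65 (SE 0.14, adjusted p 0.00449, edgeR; 1 of 6 called), and Tubb3, a neuronal tubulin, was higher by 0.49 (SE 0.13, adjusted p 0.0234; 1 of 4 tested). No erythroid marker was called (8 of 12 tested), although their median log2 change was 0.58 in Isl1_het, -0.77 in Nipbl_het and 0.69 in double_het against wild-type and 1.52 in double_het against Nipbl_het. Their summed level ran from 1870 to 106530 CPM within wild-type alone and overlapped between all 4 genotypes. The part of cell makeup in the members' values was not tested.

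Windows around annotated gene starts were read from RefSeq (GRCm38.p6), 250 bases before to 50 bases after the start, for the 61 members with an entry. A run of 8 or more C and T bases within 20 bases on either side of the start, on the coding strand, occurred in 29 of 61 (47.5%), against 15.9% of 27025 promoters. The letters CCGGAAG, the core of ETS-family sites, occurred on either strand in 23 windows (37.7%, against 9.11% of all), and CACGTG, the E-box bound by Myc proteins, in 5 (8.20%, against 7.23%). A window without a match shows only that these letters are not in it. Of the members with the longest runs 5 are shown first, Rpl13a being taken before Rpl14 and Rpl4, which also have 14 bases, for its higher correlation. The 3 least coordinated of the others follow, so that windows of both kinds can be compared. Each is printed from 60 bases before the start through the first 15 bases from it, in lower case, with its longest run of C and T bases near the start in capitals where that run has 8 or more bases, as far as the window reaches.
Rpl7a (chr2:26910747-26910821, + strand): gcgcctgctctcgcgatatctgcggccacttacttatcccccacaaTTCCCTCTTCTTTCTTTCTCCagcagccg
Rpl27a (chr7:109519135-109519209, + strand): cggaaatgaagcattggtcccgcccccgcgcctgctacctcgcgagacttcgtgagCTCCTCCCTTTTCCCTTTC
Rpl35 (chr2:39005117-39005191, - strand): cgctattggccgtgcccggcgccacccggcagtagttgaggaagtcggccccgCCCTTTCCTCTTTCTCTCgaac
Rpl15 (chr14:18270972-18271046, - strand): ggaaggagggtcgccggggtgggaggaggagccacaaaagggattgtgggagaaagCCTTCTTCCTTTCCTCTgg
Rpl13a (chr7:45128731-45128805, - strand): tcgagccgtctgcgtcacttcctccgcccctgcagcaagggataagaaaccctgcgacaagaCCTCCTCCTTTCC
Rpl3l (chr17:24727766-24727840, + strand): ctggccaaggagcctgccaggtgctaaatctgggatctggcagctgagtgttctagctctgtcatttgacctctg
Rpl7l1 (chr17:46782642-46782716, - strand): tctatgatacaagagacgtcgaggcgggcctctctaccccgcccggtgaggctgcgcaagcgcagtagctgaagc
Rps27 (chr3:90213634-90213708, - strand): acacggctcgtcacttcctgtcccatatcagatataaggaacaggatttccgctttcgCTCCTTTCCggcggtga
Rpl7a and Rpl15, both with a correlation well under that of most members, stand beside Rpl27a, Rpl35 and Rpl13a, which are at 0.986, 0.989 and 0.977, among the longest runs. Runs were found in 23 of the 51 members with a correlation above 0.9 and an entry, and in 4 of the 6 with one under 0.8. Rpl11, the member closest to the mean, has a longest run of 7 bases at its RefSeq start. Rpl3l and Rpl7l1, paralogues of Rpl3 and Rpl7, have longest runs of 5 and 3 bases.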

How the data were processed

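The authors deposited 1 table of raw counts, with a row per gene symbol and a column per library. Per the submitters' processing notes, STAR and featureCounts were used with GRCm38 (mm10). Versions, annotation, strand setting and treatment of reads that fit several places are not given in the sources used here. Libraries were assigned to genotypes from their titles and to sets from their descriptions. There were 0 further columns of values. No pair of the 153 pairs of libraries within a genotype agreed within sampling noise (smallest chi-square per degree of freedom 7.488).

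The members, gene lists and named genes were chosen with earlier results of these data known. Named genes were those with the 5 highest or lowest values of level, residual SD or coordination, paralogue pairs, stalk genes, Rpsa, and any called; a few of these are not reported here. Genes were kept by filterByExpr (minimum count 10, minimum total count 15), scaled by TMM and fitted in edgeR 4.0.16 (R 4.3.3, limma 3.58.1). The 37 libraries shared 1 fit whose terms were genotype and set. Tests were two-sided, with Benjamini-Hochberg adjustment over 15046 genes. Standard errors were computed from the F statistic. Log2 CPM used a prior count of 2. Transcript lengths came from GENCODE M21, which held 24366 of the symbols. Promoters came from the RefSeq table. Removal of a lowess trend in length (span 0.3) and leaving out 3 libraries were chosen after seeing the data. DESeq2 1.42.0 was an alternative. The fit was also run on simulated counts, drawn independently for each gene without set differences. That setting differs from these data, so nothing is drawn from it here. P-values measure the spread between embryos. Depth is the total count given in the report. Python 3.11.15, pandas 2.3.3 and matplotlib 3.10.9 were used for promoters and plots.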

Additional observations from a re-analysis of the deposited data

Results flagged for a closer look

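Levels of the ribosomal protein genes were examined for a library far from the rest of its genotype, by its gap to the nearest other library relative to the range of the group. The share of counts, the mean level, the subunit ratio, the length slope and 32 named members were examined in 4 genotypes, which makes 144 groups, and 23 were picked out. By chance about 1 in 20 groups would be. The 23 lie in 2 libraries, and members that vary together are picked out together.

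Double_het replicate 8 was the highest of its genotype in 21 of them. The members took 10.8% of its counts, where the next double_het library was at 7.42%, and their mean level was 9.87 log2 CPM, where the next was at 9.14. In log2 CPM, Rpl11 was at 10.98, Rpl13a at 11.95, Rpl21 at 9.56, Rpl22 at 9.80 and Rpl22l1 at 8.32. Rpl3 was at 11.25, Rpl32 at 10.94, Rpl34 at 4.16, Rpl37 at 9.77, Rpl38 at 9.00 and Rpl41 at 11.65. Rpl7l1 was at 7.41, Rplp1 at 11.31, Rplp2 at 10.31, Rps14 at 11.73 and Rps27l at 8.17. Rps4l was at 7.72, Rps4x at 11.31 and Rps6 at 10.35. This library had the lowest length slope of all 37, at -0.22 log2 per doubling of length, and a globin share of 4.63%. The part of either in its member levels was not tested.

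Nipbl_het replicate 2, the library whose Nipbl level goes against its label, was the lowest of its genotype in 2 members. Rpl7l1 was at 6.20 log2 CPM there, where the next Nipbl_het library was at 6.96, and Rps4l was at 5.87, where the next was at 6.80. Its length slope was the highest of all 37 libraries, at 0.20.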

How the results depend on the processing

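Of 897 values under alternatives, 883 stayed within a margin and 14 moved. The margin was 1.5 times the main count for calls, 0.1 for the correlation and an SD between libraries for shares and medians. For medians that SD was 0.27 log2, larger than the size of every main median. A change of sign in a median could therefore stay within the margin, so these counts do not show that medians were stable. Member medians did change sign, as given here and in the account by sets. A reversal was looked for in the correlation only, where there was none. In each of the 8 genotype comparisons 0 members were called in the main fit. Without the set term 1 member, Rps4l, was called in double_het against wild-type and 1 for averaged Nipbl loss. Of all 15046 genes, 570 and 1045 were called there. With replicate number as a block in place of set, 2 members, Rpl34 and Rps4l, were called for averaged Nipbl loss, against 993 of all genes. Leaving out each library in turn gave 0 to 1 calls in these 2 comparisons (1 without Nipbl_het replicate 2 in both and 1 without Nipbl_het replicate 8 for averaged loss) and 0 in the other 6. Over all genes 839 and 1044 were called in the 2 comparisons without Nipbl_het replicate 2. For averaged loss 670 were called without Nipbl_het replicate 8. With the length trend removed 1 member, Rps4l, was called in Nipbl_het and 1 for averaged Nipbl loss, against 2.47% and 5.11% of all genes. The set test called 74 members, 8 without set 2, 45 without set 5, 46 with the length trend removed and 45 to 80 with a library left out (45 without double_het replicate 8). The median pairwise correlation of 0.922 was 0.755 with the length trend removed, 0.656 with the upper median of lengths and 0.908 to 0.938 with a library left out. With a library left out, member medians ran from -0.23 to -0.05 in Isl1_het, -0.19 to 0.06 in Nipbl_het and -0.27 to 0.02 in double_het against wild-type. They ran from -0.10 to 0.10 and from -0.18 to 0.06 in double_het against Isl1_het and Nipbl_het, from -0.00058 to 0.22 for the interaction, from -0.09 to 0.07 for averaged Nipbl loss and from -0.17 to -0.04 for averaged Isl1 loss. The extremes came without wild-type replicate 1 or 4, Nipbl_het replicate 8, Isl1_het replicate 8 or double_het replicate 8. Over all genes, leaving out Nipbl_het replicate 2 moved the calls from 258 to 410 in Nipbl_het and from 391 to 839 in double_het against wild-type. The cause was not tested. Same-numbered libraries of different genotypes correlated at a median of 0.028 over 54 pairs, and 3 of 37 libraries correlated best with their own number, so the numbers were not taken as pairs. The values of Rpl3l, Rpl32l, Rps27 and Rpl30 rest on few counts, 1036 to 3879 over all libraries. Reads carry no molecular identifiers.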
